A study of Mus musculus with 6 samples.

Results

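*Dusp1*, *Dusp2*, *Dusp4*, *Dusp5*, *Dusp6*, *Dusp7*, *Spry1*, *Spry2*, *Spry4* and *Spred1* are feedback inhibitors of mitogen-activated protein kinase (MAPK) signaling. These 10 genes were followed among the 22322 genes of an RNA-seq table of the mouse arcuate nucleus (ARC), the hypothalamic nucleus that holds Kiss1 neurons. They were found in the table through Ensembl identifiers that carry these symbols, and all 10 were present and passed the filter on low counts, as did 14188 genes in all. The group was chosen from the diet contrast itself, with earlier results of these counts known in which *Dusp1* and *Dusp6* were lower in the high-fat diet group, so the differences of the 10 genes between diets are given as a description and carry no test.

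The study asked which genes of the ARC differ between lean and diet-induced obese males. Males that were 4 weeks old at the start received for 16 weeks either a normal chow diet (NCD) with 16.5% fat or a high-fat diet (HFD) with 60% fat, and ARC regions were cut from 20 μm brain sections by laser capture microdissection. Each group held 3 samples, named here by diet and number (NCD1, HFD1 and so on). The genotype of the sequenced samples is not given in the sources used here, although the study's methods describe wild-type C57BL/6J mice and a Kiss1-Cre, R26R-EYFP reporter cross that served to locate the Kiss1 neurons. Whether a sample came from 1 mouse or from several pooled mice is not stated, so p-values measure the spread between these samples, which may in part be technical. Total counts were 15925648, 9937632 and 6882449 in NCD1 to NCD3 and 8024664, 10479778 and 5171381 in HFD1 to HFD3. The captured tissue is a mixture of cell types, and in such bulk samples fewer cells of a type and less RNA per cell cannot be told apart.

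When a growth factor or neuronal activity activates the Ras, Raf, MEK and ERK chain, ERK drives the transcription of genes whose products switch the chain off again. The dual-specificity phosphatases (DUSPs) of this kind remove the activating phosphates from the threonine and tyrosine of the kinase: DUSP1, DUSP2, DUSP4 and DUSP5 act in the nucleus, and DUSP6 and DUSP7 act on ERK in the cytoplasm. Sprouty and SPRED proteins are membrane-associated inhibitors that act further up, between the receptor tyrosine kinase and Raf, and SPRED1 recruits the Ras GTPase activating protein neurofibromin. In neurons *Dusp1* and *Dusp5* are known as fast-response genes, and the level of *Dusp6* RNA is widely read as a marker of ERK activity.

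Sequences just upstream of the start site are shown for *Dusp1* and *Dusp5*, the nuclear phosphatases with the lowest HFD to NCD ratios, and for *Dusp6*, the most abundant cytoplasmic one, because these stretches differ in the activity-related motifs they hold. Each is the 200 bases from -250 to -51, counted back from the RefSeq start on GRCm38.p6 and written 5′ to 3′ on the strand of the gene, with motif matches in capitals. The genes lie on the minus strand at chr17:26508523-26508722 (*Dusp1*), and on the plus strand at chr19:53528895-53529094 (*Dusp5*) and chr10:99262981-99263180 (*Dusp6*).
Dusp1: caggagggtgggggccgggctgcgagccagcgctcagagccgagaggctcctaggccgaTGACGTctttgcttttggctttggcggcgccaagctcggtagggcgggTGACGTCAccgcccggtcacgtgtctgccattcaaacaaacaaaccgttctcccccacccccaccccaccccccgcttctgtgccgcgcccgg
Dusp5: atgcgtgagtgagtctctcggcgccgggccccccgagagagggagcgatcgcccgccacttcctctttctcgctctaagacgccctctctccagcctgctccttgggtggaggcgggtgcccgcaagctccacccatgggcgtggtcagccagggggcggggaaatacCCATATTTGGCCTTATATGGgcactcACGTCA
Dusp6: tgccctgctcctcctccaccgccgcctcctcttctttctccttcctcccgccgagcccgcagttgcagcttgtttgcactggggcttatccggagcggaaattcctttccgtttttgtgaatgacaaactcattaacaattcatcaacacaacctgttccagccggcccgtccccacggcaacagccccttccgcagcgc

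RefSeq promoters were read for 8 of the 10 genes, without *Dusp4* and *Spry4*. Both strands of the 250 bases before the start were searched for 6 motifs. These were the cAMP response element (CRE, TGACGTCA), its core (TGACGT, which lies within the CRE), AP-1 (TGANTCA), the CArG box that binds serum response factor, an ETS site (CCGGAAGT) and an EGR site (GCGNGGGCG). *Dusp1* held the CRE at -143 to -136 and a separate core at -191 to -186. *Dusp5* held a pair of adjoining CArG boxes at -82 to -73 and -72 to -63, and the core, on the other strand, at -56 to -51. *Dusp2* held an EGR site at -98 to -90. None of the 6 motifs was found in these windows of *Dusp6*, *Dusp7*, *Spry1*, *Spry2* and *Spred1*. Of 32851 RefSeq promoters of the same length, 1.55% held the CRE, 6.47% its core, 6.75% AP-1, 1.47% a CArG box, 2.88% the ETS site and 4.70% the EGR site. A match is a description of the letters and does not show that a factor binds.

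*Dusp1*, *Dusp6* and *Spry4* were the genes of the 10 whose 3 HFD samples all lay below the 3 NCD samples. Their HFD levels were 44.6%, 53.7% and 57.3% of the NCD levels. 8 of the 10 genes had a log2 fold change below 0, where 49.5% of all genes tested had one. At the study's threshold of an unadjusted p under 0.05 with a change over 1.5-fold, the 3 genes passed, all lower in HFD, where 0.888% of all genes were called lower and 1.90% in either direction. The groups did not overlap, with HFD lower, in these 3 genes and in 3.24% of all genes. None of the 10 genes reached a Benjamini-Hochberg adjusted p under 0.05 (edgeR), a level that 0.0564% of all genes reached, while 3 had an unadjusted p under 0.05 and DESeq2 put 1 (*Dusp1*) under the adjusted level. The rule for the group drew on this contrast, so nothing is read from these counts. The median log2 fold change was -0.39 over the 10 genes and 0.003 over all genes tested. The summed level of the 10 genes was 317, 281 and 312 CPM (counts scaled by library size, with TMM factors) in NCD1 to NCD3 and 259, 214 and 253 CPM in HFD1 to HFD3. The 7 genes whose groups overlapped, *Spred1* foremost, summed to 213, 180 and 235 CPM in NCD and 210, 165 and 211 CPM in HFD. These genes were picked by that overlap, so nothing is read from their sums.

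**Figure D1:**
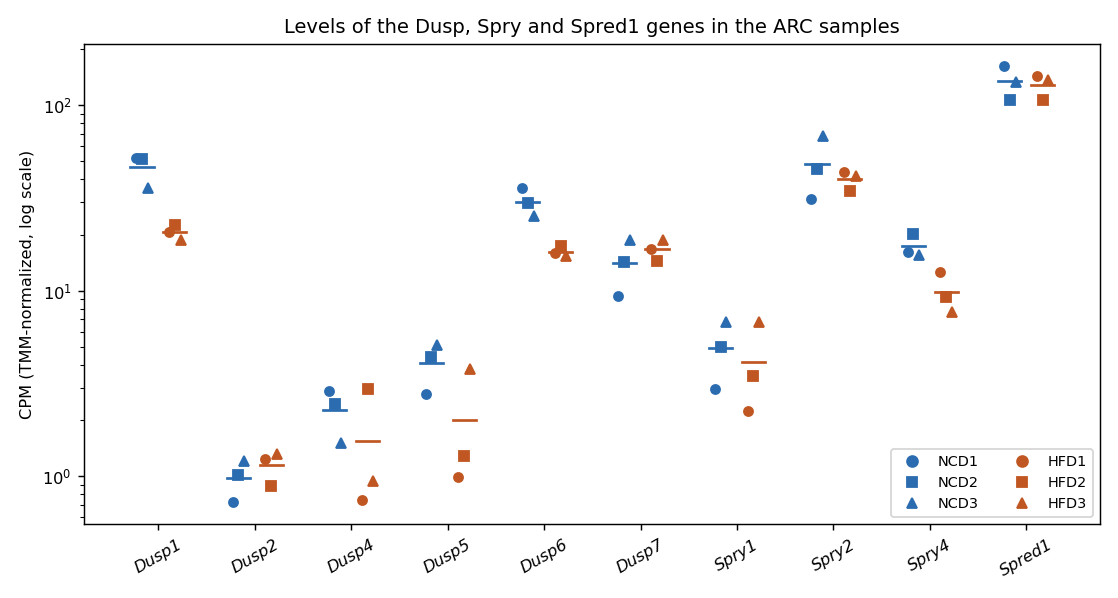
CPM of each of the 10 genes in the 3 NCD and 3 HFD samples, on a shared log axis, with points for samples and short lines for group means. *Dusp1*, *Dusp6* and *Spry4* are the genes without overlap between groups, while the *Spry2*, *Dusp7* and *Spry1* points spread widely within NCD.

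Among the nuclear phosphatases, *Dusp1*, which acts on p38, JNK and ERK, was the most abundant per length, at 17.6 FPKM on average. Its CPM was 52.1, 51.5 and 36.0 in NCD1 to NCD3, from 865, 506 and 239 counts. In HFD1 to HFD3 it was 20.8, 22.7 and 18.8 CPM, from 167, 230 and 100 counts. The HFD samples lay close together and well under the lowest NCD sample, NCD3, and the log2 fold change (HFD against NCD) was -1.16 (SE 0.22, n = 3 per group). GENCODE M21 gives *Dusp1* (ENSMUSG00000024190) a model of 56539 bases on chromosome 17, from 26505590 to 26562128 of GRCm38, against 2882 bases in RefSeq. The longer model overlaps *Ergic1*, a gene of the endoplasmic reticulum and Golgi on the opposite strand, and whether the counting used strand is not stated. The model also overlaps AC122252.4, a processed pseudogene, and AC122252.1, an intronic transcript, both on the *Dusp1* strand. The pseudogene *Gm8225* lies on the opposite strand. *Ergic1* had a log2 fold change of 0.005 (SE 0.19), with 92.8, 113 and 101 CPM in NCD and 102, 109 and 96.5 CPM in HFD. The part of overlapping genes in the *Dusp1* counts was not tested.

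*Dusp5*, an ERK-specific nuclear phosphatase (ENSMUSG00000034765, chromosome 19, 53529109 to 53542431), had the next lowest ratio but overlapped between groups. Its CPM was 2.77, 4.38 and 5.12 in NCD1 to NCD3 and 0.994, 1.28 and 3.76 in HFD1 to HFD3. HFD1 and HFD2 lay under every NCD sample, and HFD3 lay above NCD1. The log2 fold change of -1.07 had an SE of 0.54, on 8 to 46 counts per sample. It became -1.81 when HFD3 was left out. *Dusp5* met the study's threshold in 4 of 14 alternative analyses.

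*Dusp4*, a nuclear phosphatase of ERK and JNK (ENSMUSG00000031530, chromosome 8, 34807297 to 34819894), had 2.89, 2.44 and 1.505 CPM in NCD and 0.746, 2.96 and 0.941 CPM in HFD. HFD2 was the highest of all 6 samples, while HFD1 and HFD3 were the lowest. The log2 fold change was -0.52 (SE 0.57), on 5 to 48 counts per sample, and -1.47 without HFD2. *Dusp4* met the study's threshold in 1 of 14 alternative analyses. *Dusp2*, which is best known from activated lymphocytes (ENSMUSG00000027368, chromosome 2, 127336159 to 127338376), was close to the detection limit at 0.722, 1.02 and 1.20 CPM in NCD and 1.24, 0.887 and 1.32 CPM in HFD. With 7 to 12 counts per sample, a difference was not detectable at this depth (log2 fold change 0.24, SE 0.56).

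Of the cytoplasmic phosphatases, *Dusp6* (ENSMUSG00000019960, chromosome 10, 99263231 to 99267489) was lower in every HFD sample and *Dusp7* was not. *Dusp6* had 35.6, 29.8 and 25.3 CPM in NCD1 to NCD3 and 15.9, 17.4 and 15.4 CPM in HFD1 to HFD3. The 3 HFD values differed from each other far less than the NCD values did, and the lowest NCD sample was again NCD3. The log2 fold change was -0.90 (SE 0.22). *Dusp7* (ENSMUSG00000053716, chromosome 9, 106368632 to 106375724), which shares the substrate of *Dusp6*, had 9.33, 14.4 and 18.8 CPM in NCD and 16.8, 14.5 and 18.8 CPM in HFD. All HFD values lay within the NCD range or at its upper end, with a log2 fold change of 0.25 (SE 0.29).

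The Sprouty genes also differed from one another. *Spry4* (ENSMUSG00000024427, chromosome 18, 38586247 to 38601415) had 16.1, 20.3 and 15.6 CPM in NCD1 to NCD3 and 12.7, 9.27 and 7.71 CPM in HFD1 to HFD3. The groups were separate but HFD1 came near NCD3, and the log2 fold change was -0.80 (SE 0.27). Without NCD2, the highest sample, it was -0.68 and no longer met the study's threshold. *Spry2* (ENSMUSG00000022114, chromosome 14, 105891947 to 105896819), the most abundant Sprouty gene, had 31.1, 45.4 and 68.3 CPM in NCD and 43.9, 34.7 and 41.8 CPM in HFD. The NCD samples enclosed all HFD samples, and the log2 fold change was -0.26 (SE 0.27). *Spry1* (ENSMUSG00000037211, chromosome 3, 37639947 to 37644598) had 2.95, 4.99 and 6.77 CPM in NCD and 2.24, 3.45 and 6.77 CPM in HFD, with a log2 fold change of -0.25 (SE 0.47). *Spred1* (ENSMUSG00000027351, chromosome 2, 117121374 to 117182279) was nearly level between the diets, at 163, 107 and 133 CPM in NCD and 144, 107 and 138 CPM in HFD, with a log2 fold change of -0.06 (SE 0.22).

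Levels of different genes were compared by FPKM, which divides by transcript length. *Spred1* had the highest mean over the 6 samples, 22.2 FPKM, followed by *Spry2* at 21.1, *Dusp1* at 17.6, *Dusp6* at 8.81 and *Dusp7* at 4.79 FPKM. *Spry4* at 2.86, *Spry1* at 1.82, *Dusp5* at 1.23, *Dusp4* at 0.695 and *Dusp2* at 0.658 FPKM made up the lower end. Over both diets pooled, the sample ranges of every pair of neighbours in this order overlapped. Within each diet, *Dusp1* and *Dusp6* were apart, at 19.2 to 27.3 against 9.88 to 13.4 FPKM in NCD and 10.5 to 12.3 against 5.86 to 6.49 FPKM in HFD. *Dusp6* was above *Dusp7* in all 6 samples, with overlapping ranges in HFD. *Spred1* and *Spry2*, *Spry1* and *Dusp5*, and *Dusp4* and *Dusp2* overlapped within both diets, and the other neighbours within 1 of them. In NCD *Dusp1* ranked 1 with a mean of 24.0 ± 4.28 FPKM (SD, n = 3), just above *Spry2* at 22.9 ± 8.13 and *Spred1* at 22.7 ± 5.58 FPKM. In HFD *Dusp1* ranked 3 at 11.2 ± 0.956 FPKM, under *Spred1* at 21.8 ± 3.95 and *Spry2* at 19.2 ± 2.75 FPKM. *Spred1* varied least over the 6 samples, with a coefficient of variation of 19.6% in FPKM, and *Dusp5* most, with 53.9%.

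Several of these genes varied with library size within a diet, and library size is given beside the values for that reason. *Dusp7* had 9.33 CPM in NCD1, the largest library, and 18.8 CPM in both NCD3 and HFD3, the smallest library of each group. *Spry1* and *Spry2* were likewise lowest in NCD1 and highest in NCD3 among the NCD samples. *Dusp1*, *Dusp6* and *Spry4* ran the other way, with the lowest value of each group in the smallest library. The share of counts from mitochondrial genes was 3.20%, 4.24% and 6.57% in NCD1 to NCD3 and 4.16%, 3.51% and 5.77% in HFD1 to HFD3, highest in the smallest library of each group. When the fit also held a term for library size, the log2 fold change was -1.004 (SE 0.19) for *Dusp1*, -0.75 (SE 0.20) for *Dusp6*, -0.75 (SE 0.26) for *Spry4* and -1.63 (SE 0.50) for *Dusp5*, while that of *Dusp7* went to 0.01 (SE 0.23). It was -0.70 (SE 0.41) for *Spry1*, -0.48 (SE 0.19) for *Spry2* and -0.11 (SE 0.55) for *Dusp4* in that fit.

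**Figure D2:**
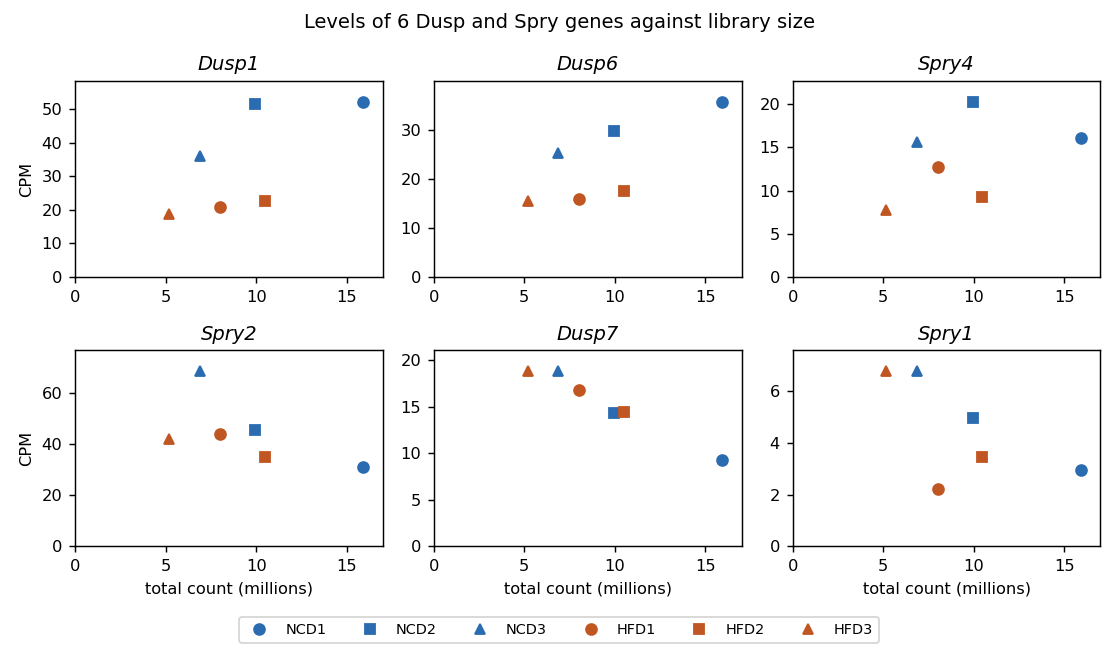
CPM of 6 of the genes against the total count of each sample, with NCD in blue, HFD in orange and a marker shape for each sample number. In the upper row (*Dusp1*, *Dusp6*, *Spry4*) all HFD samples lie under all NCD samples. In the lower row *Spry2*, *Dusp7* and *Spry1* are lowest within NCD in the largest library. That library, NCD1, is larger than any HFD library, and the part of library size was not tested.

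None of the relatives of these genes met the study's threshold. Of 5 other MAP kinase phosphatases, 3 were tested, 1 higher and 2 lower in HFD (median log2 fold change -0.04). *Dusp10*, a phosphatase of p38 and JNK, had 9.99, 11.7 and 9.33 CPM in NCD and 7.58, 7.20 and 6.21 CPM in HFD, without overlap (log2 fold change -0.56, SE 0.28). *Dusp16*, a JNK phosphatase, was at 0.15 (SE 0.26) and the neuronally abundant *Dusp8* at -0.04 (SE 0.19). None of the 12 atypical dual-specificity phosphatases tested, out of 14, met the threshold (9 higher, 3 lower, median 0.07). The largest log2 fold changes among them were -0.24 for *Dusp18*, 0.21 for *Dusp12* and 0.19 for *Dusp11*. *Dusp12* was above every NCD sample in HFD (15.4, 14.4 and 15.6 CPM in NCD, 18.4, 17.6 and 16.6 CPM in HFD). Of 9 other Sprouty family and receptor-level inhibitors, 8 were tested and none met the threshold (median 0.04). *Errfi1*, an inhibitor of the EGF receptor, was lower in each HFD sample (37.4, 30.3 and 31.6 CPM in NCD, 18.5, 29.2 and 22.0 CPM in HFD, log2 fold change -0.51, SE 0.23), a change under 1.5-fold. *Spred3* was at 0.45 (SE 0.26) and *Cbl*, a ubiquitin ligase for receptors, at 0.16 (SE 0.22). The 7 Ras GTPase activating proteins, which switch Ras off, were also without a call (median 0.06), with *Rasal2* at 0.64 (SE 0.33) and *Dab2ip* at 0.13 (SE 0.22). Without the filter on low counts 1 gene of this list met the threshold, and 1 did with the replicate block.

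Upstream of the feedback genes, calls at the study's threshold were found among receptors and 1 ligand, and none reached an adjusted p under 0.05. Of 18 receptor tyrosine kinases tested, 3 were lower in HFD at that threshold, each without overlap between groups, and the median of the list was -0.12. *Egfr*, the EGF receptor, had 13.0, 15.5 and 14.4 CPM in NCD1 to NCD3 and 6.34, 9.17 and 7.34 CPM in HFD1 to HFD3. Its log2 fold change was -0.90 (SE 0.27, edgeR adjusted p = 0.999). *Erbb3*, a neuregulin receptor, was at -0.85 (SE 0.35), and *Fgfr2*, a fibroblast growth factor receptor, at -0.63 (SE 0.21). Of 18 growth factor ligands tested, *Fgf2* alone met the threshold and was higher (log2 fold change 0.72, SE 0.30), although HFD2 at 10.7 CPM lay within the NCD range (8.91, 8.75 and 12.5 CPM). *Pdgfb* (0.86, SE 0.41) and *Cntf* (-0.73, SE 0.55) had larger differences with larger errors, and the median of the ligands was -0.01. These calls were sensitive to the analysis. In limma on log2(FPKM + 1) neither list had a call, 1 receptor was called without NCD1 or without HFD1 and 5 without NCD3, and no ligand was called without NCD1, NCD2 or HFD3.

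None of the 27 genes of the ERK cascade met the threshold, with 9 higher and 18 lower and a median log2 fold change of -0.11. *Ksr1*, a scaffold for Raf and MEK, was at 0.57 (SE 0.39), *Rps6ka2*, a kinase downstream of ERK, at -0.56 (SE 0.32), and *Hras* at 0.55 (SE 0.26). Of the p38 and JNK cascades, 19 genes were tested without a call (median 0.03), with *Mapkapk2* at 0.63 (SE 0.37), *Mapk12* at 0.54 (SE 0.46) and *Mapkapk3* at -0.48 (SE 0.42). RNA levels of the kinases do not show their phosphorylation, which was not measured in these files. Without NCD3, 3 genes of the ERK cascade and 2 of the p38 and JNK cascades met the threshold, and without HFD2 1 gene of each did.

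Of other transcripts known to depend on ERK, none of the 11 tested met the study's threshold (5 higher, 6 lower, median -0.02). *Plaur*, the urokinase receptor, had a log2 fold change of -1.25 (SE 0.60) at 0.394 to 3.01 CPM, *Emp1* one of 0.71 (SE 0.58) and the cyclin gene *Ccnd1* one of 0.44 (SE 0.29). A list of 7 genes held serum response factor and its partners, which act through CArG boxes, and *Creb1*, whose product binds the CRE. It was without a call (median 0.002), with *Mrtfa* at -0.45 (SE 0.30), *Elk1* at -0.36 (SE 0.26) and *Srf* at -0.28 (SE 0.46).

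The immediate early genes, which are switched on within minutes of stimulation, were the list with most calls. Most encode transcription factors, while *Arc* encodes a synaptic protein. Of 16 tested, 15 were lower in HFD, 11 at the study's threshold and 7 at an adjusted p under 0.05 (median log2 fold change -1.56). The 7 became 1 (*Nr4a1*) without NCD2, HFD1 or HFD2 and 3 without HFD3. *Nr4a1*, a nuclear receptor, fell from 70.1, 92.0 and 73.3 CPM to 8.82, 11.9 and 13.2 CPM (log2 fold change -2.80, SE 0.24, edgeR adjusted p = 0.000503). *Fos* fell from 80.2, 149 and 121 CPM to 16.9, 17.7 and 32.7 CPM (log2 fold change -2.39, SE 0.30, edgeR adjusted p = 0.0108). *Egr2* (-3.49), *Egr1* (-2.27), *Egr4* (-2.21), *Junb* (-1.74) and *Arc* (-1.61) also fell. *Nr4a3* (-2.07), *Fosb* (-1.52), *Nr4a2* (-1.08) and *Fosl2* (-0.96) met the study's threshold without an adjusted p under 0.05. The log2 fold changes of *Dusp1*, *Dusp6* and *Spry4* were smaller than those of the 7 genes that fell. Earlier results of these counts were also known when this list was made, and both lists were read in the same 6 samples.

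**Figure D3:**
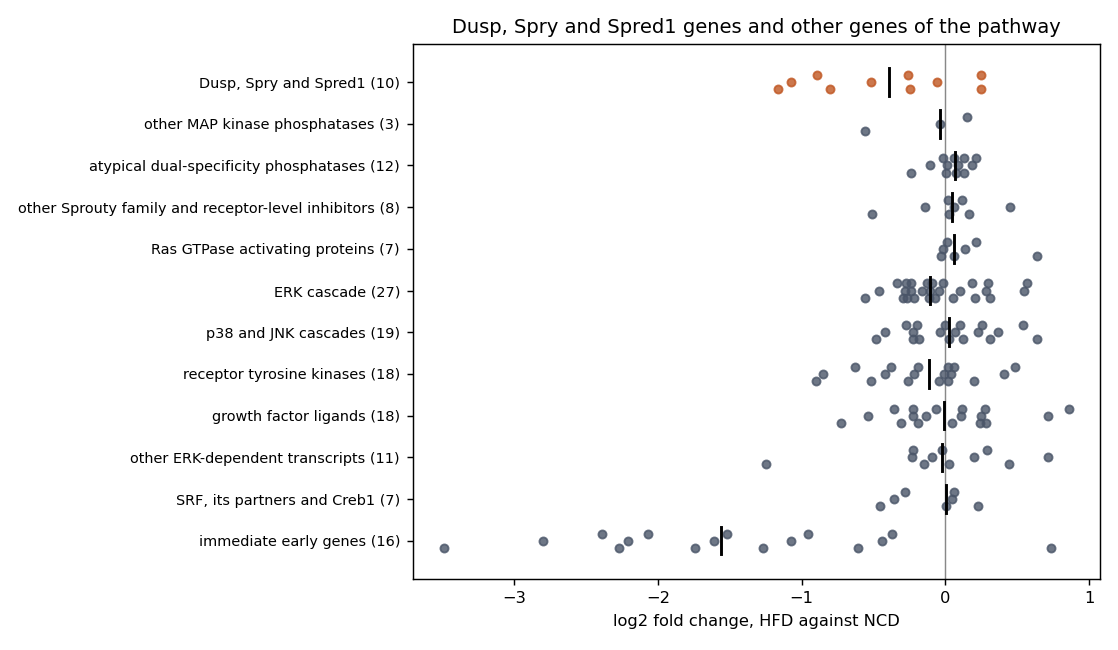
Log2 fold change (HFD against NCD) of every gene tested in the 10 feedback genes (orange) and in 11 other lists of the pathway (gray), with the number tested in brackets and a black bar at each median. The feedback genes have a median of -0.39, the immediate early genes one of -1.56, and the other lists have medians from -0.12 to 0.07.

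For the 3 feedback genes that varied most over the samples, the genes with the most similar profile were found by the root mean square (RMS) difference between centered log2 CPM values over the 6 samples. For *Dusp5* they were *Maff* (0.20), a small MAF transcription factor gene, *Suv39h2* (0.25), a histone methyltransferase gene, and *Ky* (0.30). *Maff* had 1.57, 2.54 and 3.76 CPM in NCD and 0.621, 0.690 and 1.69 CPM in HFD, in the same order of samples within each group as *Dusp5*. For *Dusp4* they were *Klhl4* (0.14), *Fbxo27* (0.18) and *Marveld3* (0.24). For *Spry1* they were *Ccdc163* (0.12), *Egr3* (0.14), an immediate early gene, and the sodium channel subunit gene *Scn4b* (0.16). *Egr3* had 4.70, 8.04 and 13.5 CPM in NCD and 3.85, 5.32 and 10.2 CPM in HFD. *Dusp5* had 8 to 46 counts per sample, *Dusp4* 5 to 48 and *Spry1* 18 to 49. How much of their range is counting error was not tested. With 6 samples and 14188 genes, close profiles by this measure are a description only.

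Markers of the cell types in the captured tissue were read beside these values, with abundance in a list taken as mean CPM. Of the 8 arcuate neuron markers, *Cartpt* had the highest mean CPM over the 6 samples and *Pomc* the highest in NCD. *Cartpt* was at 396, 673 and 577 CPM in NCD and 904, 777 and 1078 CPM in HFD. *Kiss1* itself was low, with 2.75, 4.81, 2.07 and 7.90 CPM in NCD2, NCD3, HFD2 and HFD3. It had 0 counts in NCD1 and HFD1, which allow up to 0.188 and 0.374 CPM by library total, without TMM factors. The arcuate list summed to 1450, 2356 and 1628 CPM in NCD and 2028, 1901 and 2288 CPM in HFD (6 of 8 higher, median log2 fold change 0.43), and *Cartpt* (0.75, SE 0.25) and *Tac2* (0.60, SE 0.27) met the study's threshold. With a term for library size, the arcuate median was 0.08 and no arcuate marker was called. The 9 general neuron markers summed to 3328, 3571 and 3364 CPM in NCD and 3111, 3685 and 2967 CPM in HFD, with *Snap25* the most abundant and no call (median 0.04).

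Neither list of the oligodendrocyte lineage had a call, and their summed levels overlapped between the diets. The 7 oligodendrocyte precursor markers summed to 308, 344 and 266 CPM in NCD and 280, 252 and 284 CPM in HFD, with *Olig1* the most abundant, 6 of 7 lower and no call (median -0.26). *Olig2* (-0.53, SE 0.26) and *Sox10* (-0.45, SE 0.21) did not overlap between groups. The 8 oligodendrocyte markers summed to 3450, 4927 and 3428 CPM in NCD and 2970, 4573 and 3611 CPM in HFD, with *Mbp* the most abundant and 6 of 8 lower without a call (median -0.21). The 8 astrocyte markers, with *Aldoc* the most abundant, summed to 3856, 4338 and 3755 CPM in NCD and 4651, 4402 and 3758 CPM in HFD (median -0.03), and *Gfap* met the threshold at 0.88 (SE 0.35). The 8 microglia markers summed to 392, 397 and 313 CPM in NCD and 407, 424 and 392 CPM in HFD without a call (median 0.03). The complement gene *C1qb* was above every NCD sample in HFD (64.6, 75.4 and 62.9 CPM in NCD, 92.0, 93.6 and 90.1 CPM in HFD, log2 fold change 0.44, SE 0.18), a change under 1.5-fold, and *C1qa* was at 0.46 (SE 0.21) with overlap.

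Among the vascular lists, all 8 markers of pericytes and smooth muscle had a fitted log2 fold change below 0 (median -0.16). For *Pdgfrb* it was -0.007 (SE 0.29), with a mean of 11.2 CPM in NCD and 11.3 CPM in HFD. The contractile genes *Tagln* (-1.05, SE 0.39) and *Acta2* (-0.83, SE 0.28) met the study's threshold. The 8 markers summed to 292, 280 and 217 CPM in NCD and 241, 268 and 221 CPM in HFD. *Rgs5*, the most abundant, was level at -0.002 (SE 0.21). The 8 endothelial markers, with *Flt1* the highest in CPM over the 6 samples, *Cldn5* in NCD and *Ly6c1* in HFD, summed to 201, 203 and 174 CPM in NCD and 205, 211 and 206 CPM in HFD (median -0.003), and *Ly6c1* met the threshold at 0.81 (SE 0.23). *Cldn5*, a tight junction gene, was below every NCD sample in HFD (48.4, 52.2 and 44.4 CPM in NCD, 35.5, 40.4 and 28.0 CPM in HFD, log2 fold change -0.48, SE 0.21), a change under 1.5-fold. The 8 markers of ependyma and tanycytes, with *Ccdc153* the highest in CPM over the 6 samples and *Col23a1* in HFD, summed to 219, 270 and 338 CPM in NCD and 390, 215 and 399 CPM in HFD (median 0.21), with *Col23a1* (0.91, SE 0.40) and *Crym* (0.89, SE 0.30) called. With a term for library size this median was -0.02 and 1 gene was called, and without NCD2 none was. The 5 red blood cell genes, with *Hba-a2* the most abundant, summed to 782, 2488 and 1966 CPM in NCD and 1687, 1156 and 824 CPM in HFD without a call (median -0.50). In these 10 marker lists *Kiss1* was the one gene with a count of 0 in any sample. The part of these cell types in the levels of the feedback genes was not tested.

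The direction of *Dusp1*, *Dusp4*, *Dusp5*, *Dusp6* and *Spry4* was the same in every alternative analysis that could be run for them, 15 for *Dusp1*, *Dusp6* and *Spry4* and 14 for the other two. *Dusp1* ran from -1.31 to -1.004, *Dusp6* from -1.004 to -0.75 and *Spry4* from -1.02 to -0.60. *Dusp5* ran from -1.81 to -0.58 and *Dusp4* from -1.47 to -0.11, and the low ends were the fits without HFD3 for *Dusp5* and without HFD2 for *Dusp4*. *Spry1*, *Spry2* and *Spred1* were above 0 in 2, 1 and 2 of their alternatives, and *Dusp2* and *Dusp7* were below 0 in 1 each. The alternatives reuse the same samples, and the genes were chosen with this contrast known, so a constant direction is a description only.

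**Figure D4:**
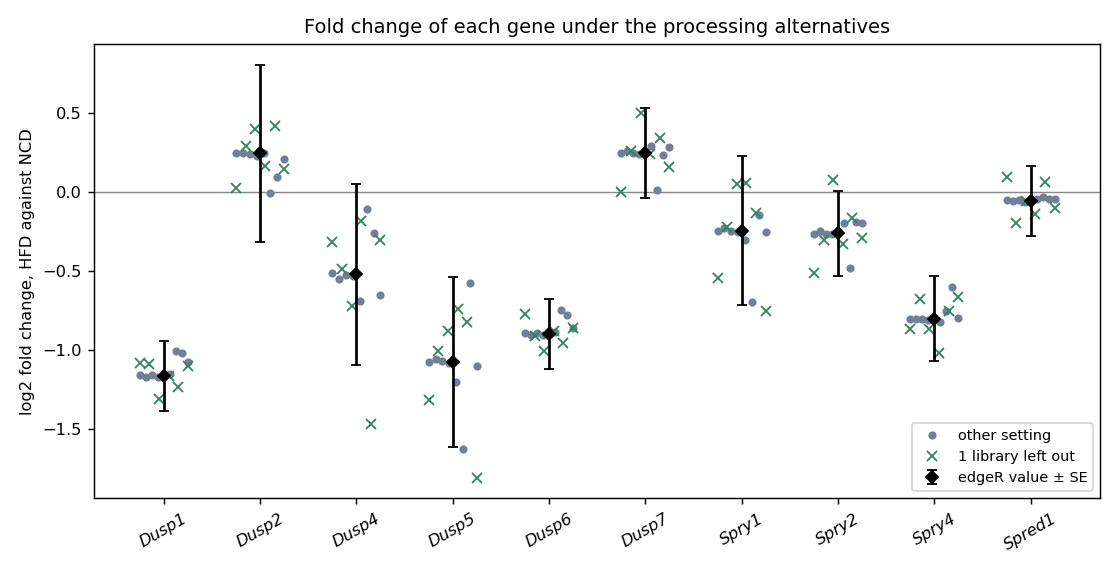
Log2 fold change (HFD against NCD) of each of the 10 genes, with the edgeR value and its standard error in black, other settings as gray points and fits without 1 sample as green crosses. *Dusp1*, *Dusp6* and *Spry4* stay below 0 throughout, while the crosses of *Dusp4* and *Dusp5* reach -1.47 and -1.81.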

How the data were processed

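RNA from the 6 ARC samples was enriched for poly(A) transcripts by the authors and sequenced on a NovaSeq instrument. Per the paper's methods, the authors compared reads with a ribosomal database in bowtie2, aligned with HISAT2 and quantified with StringTie and RSEM, and the submitters' processing notes name mm10. Versions and the use of strand are not given in the sources used here. The deposited table holds read counts per gene, which the authors did not normalize, and FPKM values, which they scaled by transcript length and mapped reads. It also holds the authors' mean FPKM per group, the log2 fold changes that the authors computed from those means, and their p-values and FDR from DESeq2, none of which entered a result.

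Sample titles gave the groups, with the initial C read as NCD and H as HFD. No label spells this out, but the authors' mean FPKM columns for NCD and HFD equal the means of the C and H columns in all 22322 genes (within 0.01), the only use made of those columns. Of 22322 identifiers, 22267 matched a symbol in GENCODE M21. Counts were tested in edgeR 4.0.16 under R 4.3.3 (filterByExpr, TMM factors from 0.967 to 1.04, quasi-likelihood test, diet as the only term, Benjamini-Hochberg adjustment over 14188 genes). The SE of an edgeR log2 fold change was derived as its absolute value divided by the square root of the F statistic of that test. CPM used the TMM factors, and log2 CPM profiles used a prior count of 2. A sample at 0 counts allows 3 counts, which is 0.188 CPM in NCD1 and 0.580 CPM in HFD3 and covers counting error only. This limit was scaled by library total alone, without the TMM factor. The feedback genes and all other lists were chosen with earlier results of these data known. From each other list, the text names the genes called by either rule, or else up to 3 with the largest log2 fold change, and the most abundant marker; some of these are not reported here. Alternatives used RLE or library-total scaling, DESeq2 1.42.0, other filters, a replicate block, library size as a covariate, limma 3.58.1 on log2(FPKM + 1) or log2(FPKM + 0.1), and fits without each sample. Promoter sequences came from RefSeq. The statistics script was tested on simulated data.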

Additional observations from a re-analysis of the deposited data

How the results depend on the processing

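With 3 samples per group, the number of called genes depended on the analysis. Genes at an adjusted p under 0.05 numbered 8, but 19 with DESeq2, 15 without the filter on low counts, 15 with a term for library size and 5 with limma at either pseudocount. Without 1 sample they ranged from 1 (without NCD2, HFD1 or HFD2) to 16 (without NCD3). Genes at the study's threshold numbered 270, but 427 without the filter and 179 with a mean of at least 50 counts, and from 195 (without HFD1) to 982 (without NCD3) when 1 sample was left out, with 606 without HFD2. The cause was not tested. Of the 10 feedback genes, 6 had a mean of at least 50 counts and 5 of these were lower. Leaving out 1 sample gave 6 to 8 lower genes, 2 to 4 at the study's threshold and a median from -0.53 to -0.26. The median was -0.23 in limma on log2(FPKM + 1) and -0.59 with a term for library size, where 9 genes were lower. No feedback gene had an adjusted p under 0.05, but *Dusp1*, 1 gene, did with DESeq2, with the replicate block and without NCD3, and the fits without another sample gave 0. By CPM per kilobase of coding sequence, 2 genes (*Dusp7* and *Spry4*) exchanged ranks. Of 630 values of the other lists (calls and medians), 72 moved beyond the limits set for them, marker calls among them: no arcuate marker was called without NCD1 and 4 were without NCD3, no *Gfap* call was left without HFD1 or HFD2, no smooth muscle marker was called without HFD1, and 4 red blood cell genes were called without NCD1. Scaling left the median of all genes within 0.1.

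The replicate numbers were not shown to pair the samples, since same-numbered samples had deviations from the group means that correlated at -0.0116, 0.113 and 0.369. In the fit with the replicate block, 17 genes had an adjusted p under 0.05 and 376 met the study's threshold, among them 4 feedback genes.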
